A study of Bos taurus with 18 samples.

Results

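The tunica albuginea, the collagen-rich layer beneath the surface of the ovary, was compared with stroma lying close to follicles in cattle. Members were chosen by sample title, which gave 4 tunica albuginea arrays and 4 arrays of stroma close to follicles, 8 of the 18 arrays in the series. The other arrays were 4 of interstitial stroma, which lies between follicles, and 6 of theca, the cell layer around the follicle wall. The cows were not pregnant, and 1 ovary of each was taken at slaughter, per the labels. No allele, drug or treatment was applied to any group. Laser microdissection of 10 µm sections stained with cresyl violet gave the tunica and both stromas, and the RNA on each of these arrays was pooled from different animals. Theca was dissected from healthy small antral follicles, each array holding 1 follicle of 1 animal. Theca enters below through the spread it shares with the other groups in the fit, and through means over all 18 arrays. These means chose 1 cluster for genes with several and set the filter of dim clusters. Some alternative settings used the theca arrays too. How many animals made up a pool, and whether any animal was in more than 1 pool, is not given in the sources used here. Animals common to pools of 1 compartment would make the p-values too small, and animals common to both compartments could make them too large.

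The ovary is wrapped in a surface epithelium, and under it lies the tunica albuginea, a dense sheet of fibroblasts and collagen. Deeper in the cortex, looser and more cellular stroma holds the follicles, each an oocyte surrounded by granulosa cells. Fibrillar collagens carry tension in such tissue, small leucine-rich proteoglycans bind and space the collagen fibrils, and lysyl oxidases cross-link them. Stroma next to a growing follicle is the tissue from which theca is recruited.

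Values are log2 signals of transcript clusters, the array's probe groups for single transcript regions, so a difference of 1 is a 2-fold change in signal. Every array had a median of 4.1. A signal below that can be background, and a difference from such a group is then a lower limit. Differences are given as tunica minus stroma close to follicles with their standard error (SE), tested with limma. The p-values were adjusted over all 26773 clusters, and 0.05 was the threshold for a change. In bulk tissue, fewer cells of a type and less RNA per cell cannot be told apart.

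Of the 26773 clusters, 1017 (3.8%) differed between tunica albuginea and stroma close to follicles. Of these, 494 (1.85%) were higher and 523 (1.95%) lower in tunica. With the 8 arrays alone in the fit, 434 clusters were called (223 higher, 211 lower). Without the third tunica array, 627 were called, and without the first or second array of stroma close to follicles 652 and 645 were. A change of at least 2-fold was reached by 503 of the 1017, 235 higher and 268 lower. The 4 tunica values did not overlap with the 4 values of stroma close to follicles in 1767 clusters (6.6%). The sets differed in brightness. Genes higher in tunica had a median of 6.08 in tunica and 4.98 in stroma close to follicles, and 29.4% of them were below 4.1 in stroma close to follicles. Genes lower in tunica had a median of 3.85 in tunica and 5.25 in stroma close to follicles, and 55.1% were below 4.1 in tunica. The median difference over all clusters was 0.03. Matrix genes lay on the higher side and germ cell genes on the lower side, as the plot of all clusters shows. These and all further lists were chosen with earlier results of these data known, so their counts are descriptions.

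**Figure D1:**
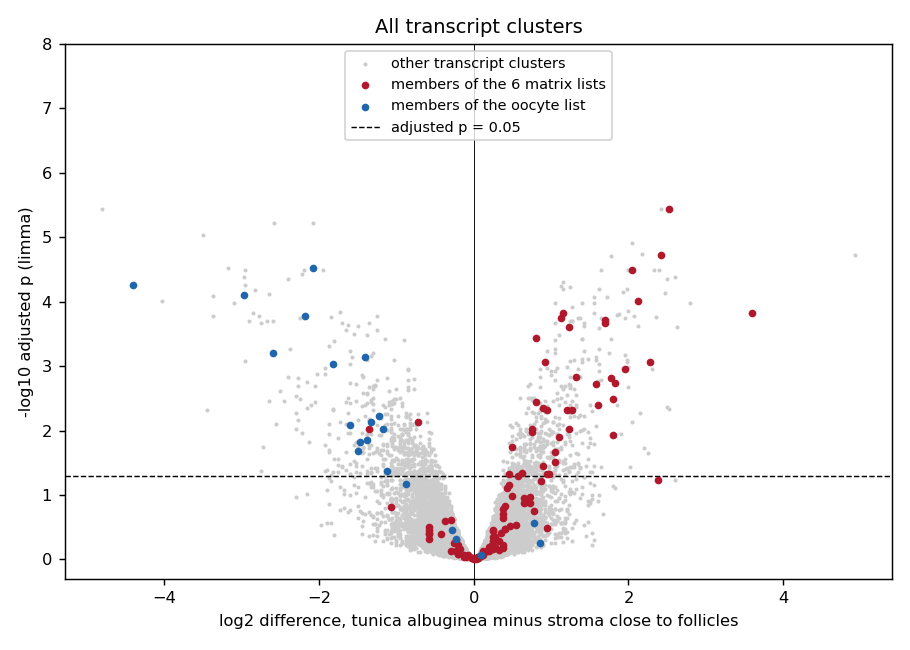
Each point is 1 of 26773 transcript clusters, with the log2 difference (tunica albuginea minus stroma close to follicles) on the x axis and the -log10 adjusted p from limma on the y axis. Red points are members of the 6 matrix lists, blue points members of the oocyte list, grey points all other clusters, and the dashed line marks an adjusted p of 0.05. Of the matrix members, 38 passed on the higher side, and 15 oocyte members passed on the lower side.

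Leading genes were the 15 largest differences each way among called genes whose arrays did not overlap. A mean of at least 6 in the higher compartment was also required. ADAM22 had the greatest positive difference of the leading genes. This membrane protein of the disintegrin family, which lacks protease activity, stood at 8.2, 8.8, 9.2 and 9.6 in tunica, against 3.6, 3.9, 4.6 and 4.0 in stroma close to follicles. The difference was 4.92 ± 0.48 (SE, adjusted p = 1.9e-05), a 30.4-fold higher signal, and the highest array of stroma close to follicles lay far below the lowest tunica array. TNC, the matrix glycoprotein tenascin C, read 7.3, 9.0, 8.4 and 8.0 in tunica and 4.0, 4.1, 4.5 and 5.7 in stroma close to follicles. Its difference was 3.60 ± 0.46 (SE, adjusted p = 0.00015). STRA6, the cell surface receptor that takes up retinol, read 6.8, 7.5, 8.6 and 8.2 in tunica and 5.0, 4.8, 5.0 and 5.1 in stroma close to follicles, with a difference of 2.80 ± 0.34 (SE, adjusted p = 0.0001). The tunica arrays varied more for STRA6 than the stroma arrays, with an SD of 0.79 in tunica and 0.13 in stroma close to follicles (n = 4 each).

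Receptors and peptides known from nerve cells were also among the leaders. HTR1D, a serotonin receptor, had 5.7, 5.1, 6.7 and 6.5 in tunica and 3.6, 3.0, 3.4 and 3.6 in stroma close to follicles, so that every stroma value was below the array median. PENK, the precursor of the enkephalin opioid peptides, had 8.2, 8.8, 8.4 and 8.2 in tunica and 6.6, 5.7, 5.6 and 6.0 in stroma close to follicles. The differences were 2.60 ± 0.28 for HTR1D (SE, adjusted p = 4.2e-05) and 2.42 ± 0.20 for PENK (adjusted p = 3.7e-06). EPHX1, the microsomal epoxide hydrolase, was tightly grouped at 7.8 to 8.1 in tunica and 5.2 to 5.8 in stroma close to follicles, a difference of 2.40 ± 0.25 (SE, adjusted p = 3.2e-05). HOPX, an unusual homeodomain protein that does not bind DNA, was the brightest of the leaders, at 10.1 to 10.6 in tunica and 7.3 to 8.7 in stroma close to follicles. The remaining leading genes were BGN (2.42), ENPP6 (2.35), PALMD (2.30), CCN2 (2.27), the metal-binding metallothionein MT2A (2.20), COL1A1 (2.12), DHRS3 (2.08) and the giant cadherin FAT1 (2.05). Each had no overlap between the 4 and 4 arrays, which the choice of leading genes required. PCOLCE2 came next, also at 2.05.

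Among genes lower in tunica, TUBA3E, an alpha-tubulin, came first. It had 3.0, 2.4, 3.4 and 3.4 in tunica, all below the array median, against 8.6, 7.8, 6.5 and 8.5 in stroma close to follicles. The difference was -4.80 ± 0.38 (SE, adjusted p = 3.7e-06), or 27.9-fold. GSTA1, a glutathione transferase abundant in steroid-producing cells, had 3.0, 2.6, 2.3 and 2.7 in tunica and 6.2, 5.6, 5.8 and 7.0 in stroma close to follicles, with a difference of -3.50 ± 0.32 (SE, adjusted p = 9.3e-06). MT3, a further metallothionein, had 4.6, 3.4, 4.7 and 2.9 in tunica and 7.2, 6.7, 6.3 and 6.5 in stroma close to follicles, opposite in direction to MT2A. The remaining leaders were GTSF1 (-4.40), ADAD1 (-4.03), PTTG1 (-3.38), AURKA (-3.38), PHYHIPL (-3.17), the forkhead gene FOXR1 (-3.10), CCDC181 (-2.98), DAZL (-2.98), SAXO1 (-2.95), SKA1 (-2.95), NPM2 (-2.83) and the tetraspanin TSPAN13 (-2.75), followed by PLEKHG7 (-2.68). All 15 had a tunica mean of 5.25 or less, and several of them are germ cell or division genes described further on. PTTG1 rests on 1 of 2 clusters: the second one stood at 6.0 in tunica and 5.83 in stroma close to follicles (0.18, adjusted p = 0.84).

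**Figure D2:**
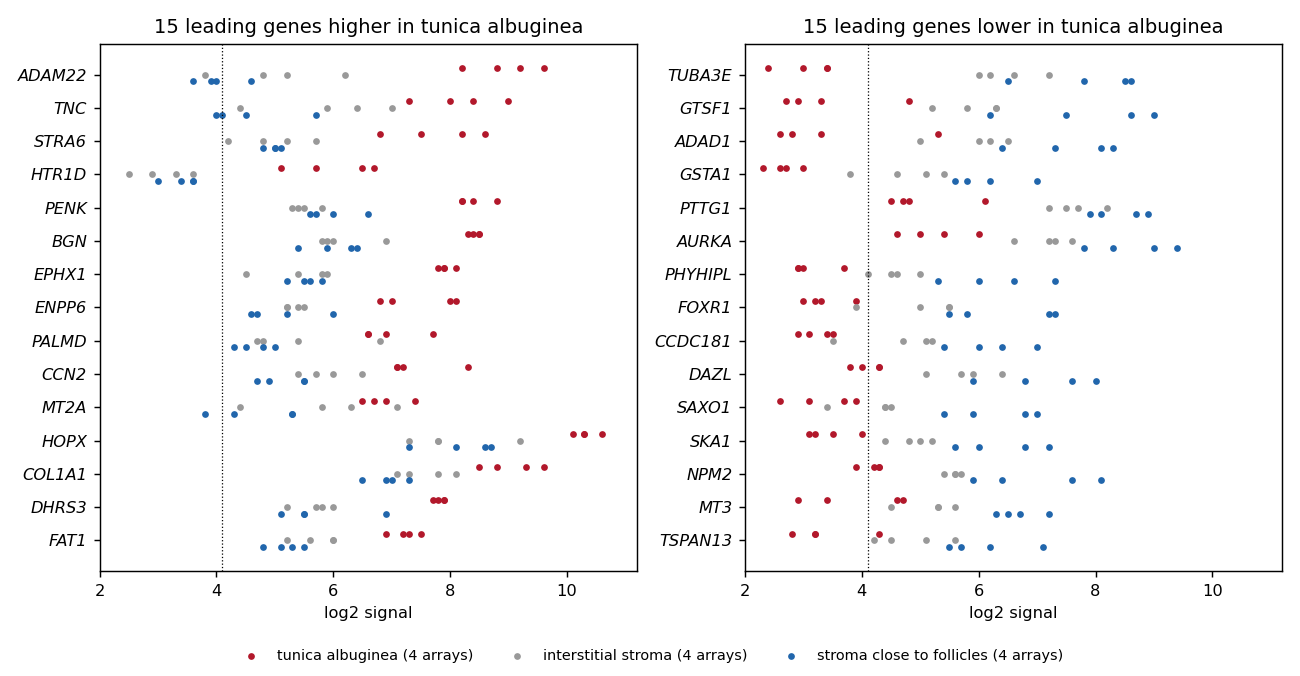
Log2 signal (x axis) of the 15 leading genes higher and the 15 lower in tunica albuginea, with 1 point for each array in tunica albuginea (red), interstitial stroma (grey) and stroma close to follicles (blue). The dotted line is the array median of 4.1. Red and blue points do not overlap for any of the 30 genes, which the choice of genes required, and the red points of most genes on the right lie below the dotted line.

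Fibrous matrix genes were higher in tunica, and in the collagen family this held for a part of the members. Of 18 measured fibrillar and associated collagens, 6 were higher, none was lower and 12 did not pass, where 1.85% of all clusters were higher. The median difference of the list was 0.41, beside 0.03 over all clusters. COL1A1, the alpha 1 chain of type I collagen, had 8.5, 9.3, 9.6 and 8.8 in tunica and 7.3, 6.5, 6.9 and 7.0 in stroma close to follicles, a difference of 2.12 ± 0.26 (SE, adjusted p = 9.6e-05). Its partner COL1A2 differed by 1.70 ± 0.23 (SE, adjusted p = 0.00021), with 7.8 to 8.9 in tunica and 6.4 to 7.0 in stroma close to follicles. The short-chain type VIII collagens stood out at lower signals. COL8A2 averaged 5.78 ± 0.35 in tunica and 3.25 ± 0.39 in stroma close to follicles (SD, n = 4 each), a difference of 2.52 ± 0.20 (SE, adjusted p = 3.7e-06), and COL8A1 differed by 1.70 ± 0.22 (SE, adjusted p = 0.00019). COL15A1, a collagen of the basement membrane zone, was higher by 1.27 ± 0.24 (SE, adjusted p = 0.0048) and COL6A1 by 0.45 ± 0.12 (SE, adjusted p = 0.047). COL6A1 lost its call in 12 of 16 other settings. COL3A1, the fibrillar collagen of soft tissue, had overlapping arrays, with 7.7 to 8.6 in tunica and 7.2 to 7.9 in stroma close to follicles, and missed the threshold at 0.65 ± 0.22 (SE, adjusted p = 0.13). The type V collagens COL5A1 (0.45, adjusted p = 0.069), COL5A2 (0.23) and COL5A3 (0.25) did not pass. COL1A1 and COL8A2 differed by more than 2 log2 units, while COL3A1 and the type V chains stayed under 0.7, with an SE of 0.13 to 0.22.

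Proteoglycans of the collagen fibril followed the same direction. Of 12 small leucine-rich proteoglycans, 6 were higher (1.85% over all clusters) and none lower, with a median of 0.74 and all 12 differences positive. BGN, biglycan, read 8.5, 8.4, 8.5 and 8.3 in tunica against 6.4, 5.9, 5.4 and 6.3 in stroma close to follicles (2.42 ± 0.24, SE, adjusted p = 1.9e-05). OGN, osteoglycin, differed by 1.77 ± 0.29 (SE, adjusted p = 0.0015) and PRELP by 1.23 ± 0.25 (SE, adjusted p = 0.0093). Lumican (LUM) and decorin (DCN) were near the top of the scale in both compartments. LUM averaged 11.25 ± 0.17 in tunica and 10.33 ± 0.19 in stroma close to follicles, and DCN 11.75 ± 0.06 in tunica and 11.25 ± 0.10 in stroma close to follicles (SD, n = 4 each). Their differences, 0.93 ± 0.14 for LUM (SE, adjusted p = 0.00088) and 0.50 ± 0.11 for DCN (SE, adjusted p = 0.018), were the smaller ones beside FMOD, fibromodulin, at 0.75 ± 0.15 (adjusted p = 0.0094). ASPN did not pass (0.72 ± 0.25, adjusted p = 0.13), and OMD, KERA and EPYC were below 4.1 in both compartments.

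Matricellular proteins, which sit in the matrix and signal to cells, had 11 of 22 members higher, none lower and a median of 0.88. The share of higher clusters over the whole array was 1.85%. Besides TNC these included CCN2, known as connective tissue growth factor, with 7.2, 7.1, 8.3 and 7.1 in tunica and 5.5, 4.7, 5.5 and 4.9 in stroma close to follicles (2.27 ± 0.35, SE, adjusted p = 0.00085). CCN1 of the same family differed by 1.80 ± 0.38 (SE, adjusted p = 0.012). THBS1, thrombospondin 1, was at 10.6 to 10.8 in every tunica array and spread from 7.6 to 9.5 in stroma close to follicles (1.95 ± 0.31, SE, adjusted p = 0.0011). FN1, fibronectin, differed by 1.23 ± 0.17 (SE, adjusted p = 0.00024) and THBS2 by 1.20 ± 0.23 (SE, adjusted p = 0.0048), although a second, dimmer THBS2 cluster did not pass (-0.45, adjusted p = 0.59). POSTN, periostin, was dim apart from 1 tunica array at 5.7, and neither it nor TNXB, THBS4 or SPARCL1 passed.

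Elastic fibre genes moved less. Of 16 measured, 3 were higher (1.85% over all clusters) and none lower, with a median of 0.33. The fibrillins FBN2 (1.82 ± 0.30, SE, adjusted p = 0.0018) and FBN1 (0.80 ± 0.15, SE, adjusted p = 0.0036), which build microfibrils, and LTBP3 (0.75 ± 0.16, SE, adjusted p = 0.01), which tethers latent TGF-beta to them, passed. ELN itself, the elastin gene, was at 4.45 ± 0.31 in tunica and 4.83 ± 0.24 in stroma close to follicles (SD, n = 4 each) and did not pass (adjusted p = 0.25). Of the fibulins, FBLN1 (0.38), FBLN2 (-0.17) and FBLN5 (0.05) did not pass either.

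Of 29 genes of matrix cross-linking and proteolysis, 8 were higher (1.85% over all clusters), 1 was lower and 20 did not pass (median 0.40). Without the third tunica array or the first array of stroma close to follicles 5 were higher. PCOLCE2 and PCOLCE, which speed the trimming of procollagen, differed by 2.05 ± 0.22 (SE, adjusted p = 3.2e-05) and 1.32 ± 0.22 (SE, adjusted p = 0.0015). The lysyl oxidases LOXL2 (1.80 ± 0.32), LOX (1.60 ± 0.30) and LOXL1 (1.05 ± 0.25) were higher too, with adjusted p between 0.0032 and 0.022, while LOXL3 (0.68, adjusted p = 0.13) and the dim LOXL4 (-0.03) did not pass. LOX read 6.8, 7.2, 7.2 and 6.0 in tunica and 5.2, 5.3, 5.5 and 4.8 in stroma close to follicles. LOXL1 lost its call in 7 of 16 other settings. The gene that went the other way was TGM2, a transglutaminase that cross-links proteins through glutamine residues, at 5.75 ± 0.59 in tunica and 7.10 ± 0.29 in stroma close to follicles (SD, n = 4 each), a difference of -1.35 ± 0.28 (SE, adjusted p = 0.0094).

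Genes of the basement membrane went both ways, 4 of 19 being higher (1.85% over all clusters) and 1 lower (1.95% over all clusters, median 0.13). LAMA3 (1.57 ± 0.26, SE, adjusted p = 0.0019), perlecan (HSPG2; 1.15 ± 0.15, SE, adjusted p = 0.00015), LAMB2 (1.12 ± 0.15, SE, adjusted p = 0.00018) and NID2 (0.97 ± 0.27, SE, adjusted p = 0.048) were higher. LAMB1, a laminin beta chain, was lower, at 7.25 ± 0.19 in tunica and 7.98 ± 0.05 in stroma close to follicles (SD, n = 4 each; -0.72 ± 0.14, SE, adjusted p = 0.0075). The tunica thus had more signal of one laminin beta chain gene and less of another. The type IV collagen genes COL4A1 (-0.20), COL4A2 (0.13), COL4A3 (-0.57) and COL4A4 (0.20) did not pass. NID2 lost its call in 12 of 16 other settings.

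**Figure D3:**
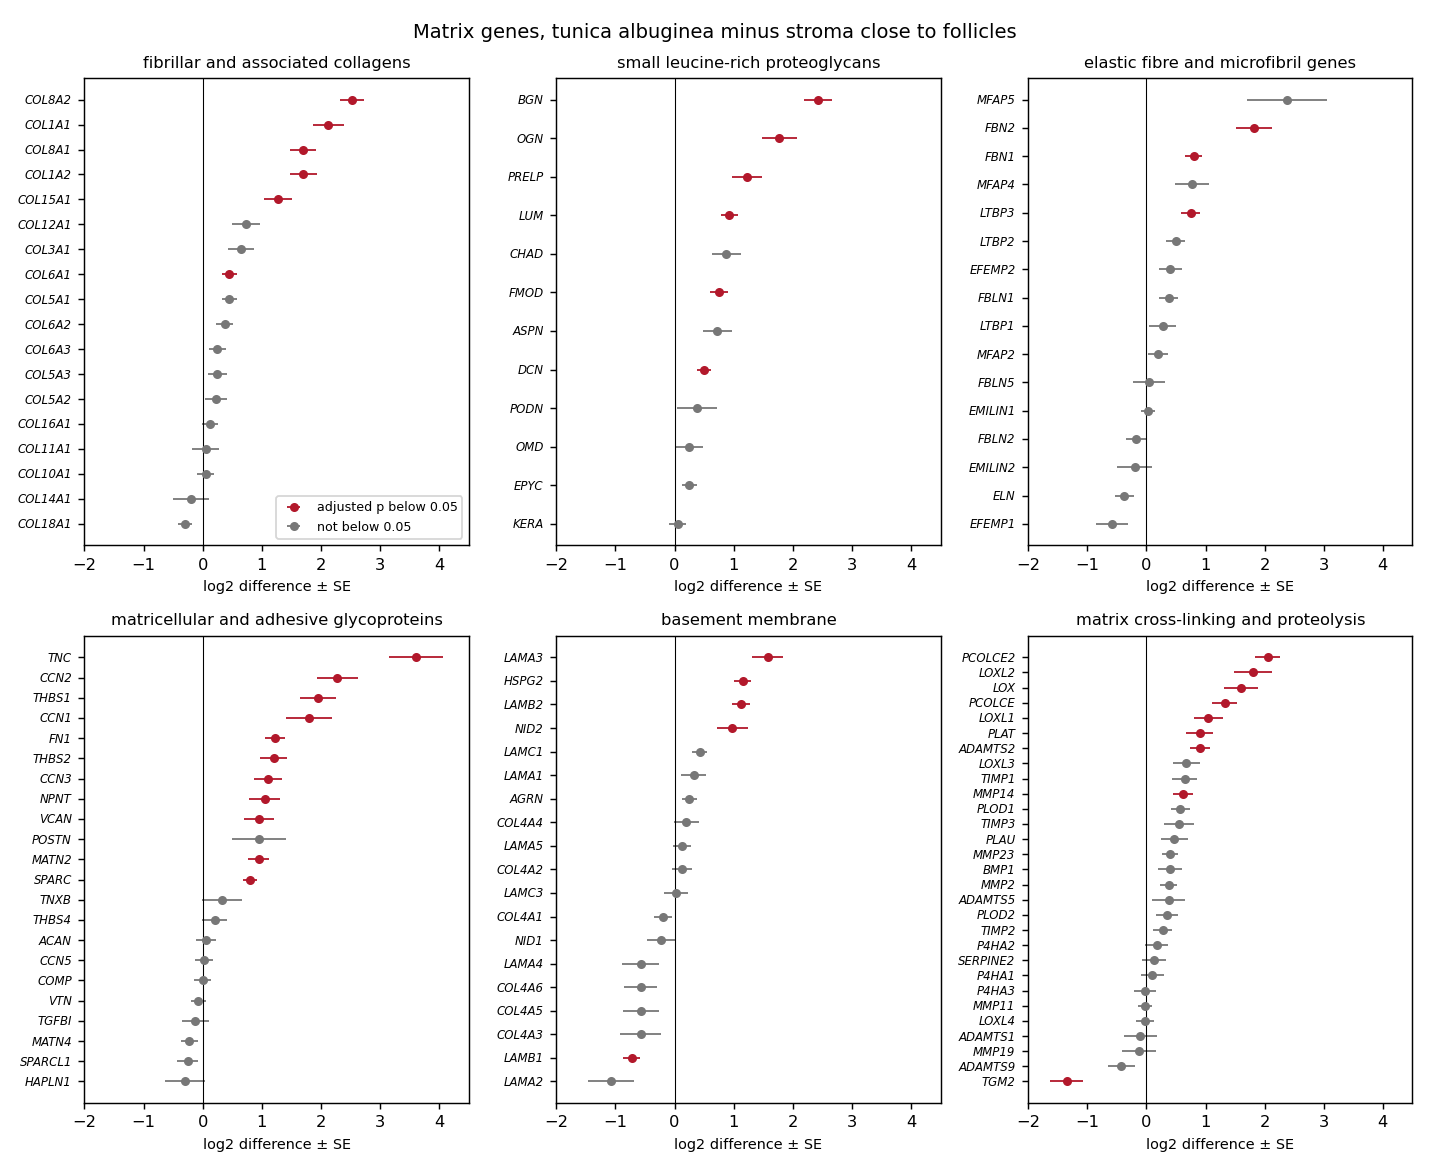
Log2 difference (x axis, tunica albuginea minus stroma close to follicles) with its standard error for every measured member of the 6 matrix lists, sorted within each list. Red points passed an adjusted p of 0.05 and grey points did not. Most red points lie right of 0, and LAMB1 and TGM2 are the members that passed on the left.

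Genes of retinoid handling were higher in tunica for 6 of 18 measured members (1.85% over all clusters), and no member was lower (median 0.24). Retinol enters cells through STRA6 and is oxidised to retinaldehyde. Aldehyde dehydrogenases oxidise retinaldehyde to retinoic acid, which acts on nuclear receptors. Beside STRA6, the retinaldehyde reductase DHRS3, which returns retinaldehyde to retinol, had 7.9, 7.8, 7.9 and 7.7 in tunica and 5.5, 6.9, 5.1 and 5.5 in stroma close to follicles. Its difference was 2.08 ± 0.27 (SE, adjusted p = 0.00016), and a second cluster of the gene gave 1.5 ± 0.28 (adjusted p = 0.004). The synthesising enzymes ALDH1A1 (1.57 ± 0.32, SE, adjusted p = 0.0085) and ALDH1A3 (1.38 ± 0.26, SE, adjusted p = 0.0057) were higher. So were the receptor RARG (1.15 ± 0.23, SE, adjusted p = 0.0081) and the retinoid-responsive chemerin gene RARRES2 (0.95 ± 0.21, SE, adjusted p = 0.016). ALDH1A3 stood at 4.95 ± 0.48 in tunica and below 4.1 in all 4 arrays of stroma close to follicles. RBP4, the carrier that delivers retinol to STRA6, did not pass, with 7.20 ± 0.28 in tunica and 7.13 ± 0.22 in stroma close to follicles (SD, n = 4 each; 0.08 ± 0.22, SE, adjusted p = 0.93), and the binding proteins CRABP1 and CRABP2 had means below 4.1 in both.

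In the prostaglandin pathway, 5 of 17 genes were higher in tunica (1.85% over all clusters) and none lower (median 0.25). PTGER2, a receptor for prostaglandin E2, had 4.8, 6.0, 5.9 and 6.0 in tunica and 3.3, 3.7, 3.7 and 4.2 in stroma close to follicles (1.95 ± 0.25, SE, adjusted p = 0.00018). PTGES, which makes prostaglandin E2, had 8.3, 8.2, 8.1 and 8.2 in tunica and 7.1, 6.9, 6.3 and 7.1 in stroma close to follicles (1.35 ± 0.34, SE, adjusted p = 0.034). Neither gene's arrays overlapped, and PTGES lost its call in 11 of 16 other settings. The prostaglandin D synthase PTGDS (0.85 ± 0.20), the prostacyclin synthase PTGIS (0.72 ± 0.19) and the cyclooxygenase PTGS1 (0.57 ± 0.16) passed with adjusted p between 0.024 and 0.048, and PTGS1 lay near background with overlapping arrays. PTGS2, the inducible cyclooxygenase, spread from 3.9 to 6.3 in tunica and from 3.9 to 5.4 in stroma close to follicles and did not pass (adjusted p = 0.76). When 1 array was left out, 1 to 4 genes of this list were called as higher.

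Signalling families changed in a few members each, and several of the large differences were lower in tunica. Of 37 WNT pathway genes, 3 were higher and 2 lower (median 0.10), beside 1.85% higher and 1.95% lower over all clusters. RSPO3, a secreted enhancer of WNT signalling, had 6.6, 7.2, 5.0 and 5.4 in tunica and 8.7, 8.9, 8.9 and 8.3 in stroma close to follicles (-2.65 ± 0.48, SE, adjusted p = 0.0034). A second RSPO3 cluster pointed the same way without passing (-1.33 ± 0.39, adjusted p = 0.071). SFRP2, a secreted WNT modulator, had 4.7, 4.6, 3.7 and 4.5 in tunica and 6.4, 6.2, 6.6 and 6.5 in stroma close to follicles (-2.05 ± 0.37, SE, adjusted p = 0.0036). The nuclear effector LEF1 (1.05 ± 0.14, SE, adjusted p = 0.00022), DKK3 (1.05 ± 0.20, SE, adjusted p = 0.0061) and the dim ligand WNT2 (0.83 ± 0.18, SE, adjusted p = 0.014) were higher. WNT5A, at 7.75 ± 0.17 in tunica and 6.60 ± 0.45 in stroma close to follicles (SD, n = 4 each), just missed the threshold (1.15 ± 0.33, SE, adjusted p = 0.058).

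Insulin-like growth factor genes had 4 of 16 higher and 1 lower (median 0.06), beside 1.85% higher and 1.95% lower over all clusters. The lower one was IGF1, a growth factor for follicle cells, with 4.1, 5.2, 3.6 and 5.2 in tunica and 6.4, 6.9, 7.1 and 6.3 in stroma close to follicles (-2.15 ± 0.40, SE, adjusted p = 0.0045). The higher ones included the binding proteins IGFBP6 (1.05 ± 0.17, SE, adjusted p = 0.0012), IGFBP7 (0.45 ± 0.10, SE, adjusted p = 0.016) and IGFBP4 (0.47 ± 0.13, SE, adjusted p = 0.049), as well as STC1 (1.5 ± 0.40, SE, adjusted p = 0.044), whose arrays overlapped. Of 16 other settings, IGFBP4 lost its call in 13, STC1 in 11 and IGFBP7 in 5, while IGF1 and IGFBP6 kept theirs. Without the third tunica array 1 gene of this list was called as higher. IGF2 (0.03), IGF1R (-0.50), IGF2R (0.28) and INSR (-0.05) did not pass.

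Of 24 ligands and receptors of receptor tyrosine kinases, 3 were higher (1.85% over all clusters) and none lower (median -0.05). HGF, hepatocyte growth factor, had 6.4, 7.3, 6.9 and 7.9 in tunica and 4.7, 5.0, 5.9 and 4.9 in stroma close to follicles (2.0 ± 0.34, SE, adjusted p = 0.0021). PDGFD, a platelet-derived growth factor, differed by 1.27 ± 0.17 (SE, adjusted p = 0.0002) and the receptor EGFR by 0.78 ± 0.15 (SE, adjusted p = 0.0054). FGF1, FGF2, FGF7 and FGF9 did not pass.

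In the TGF-beta family, 5 of 37 genes were higher and 1 lower (median 0.03), beside 1.85% higher and 1.95% lower over all clusters. The bone morphogenetic protein antagonist NOG (1.25 ± 0.23, SE, adjusted p = 0.0041), the ligand BMP6 (1.12 ± 0.26, SE, adjusted p = 0.02), FSTL1 (0.70 ± 0.12, SE, adjusted p = 0.002), the receptor TGFBR2 (0.65 ± 0.16, SE, adjusted p = 0.029) and the activin subunit INHBA (1.38 ± 0.36, SE, adjusted p = 0.038) were higher. INHA, the alpha subunit that turns activin subunits into inhibin, was lower, with 4.4, 3.4, 3.3 and 3.9 in tunica and 5.1, 5.7, 4.9 and 4.8 in stroma close to follicles (-1.38 ± 0.24, SE, adjusted p = 0.0027). The arrays overlapped for INHBA, which lost its call in 10 of 16 other settings, TGFBR2 in 7 and BMP6 in 2. Without the third tunica array 2 genes of the family were called as higher. The ligands TGFB1 (0.50, adjusted p = 0.23), TGFB2 (0.08) and TGFB3 (0.00) did not pass. In the hedgehog pathway, through which follicles signal to theca, 1 of 12 genes passed: PTCH1, the receptor and pathway target, was lower (-0.90 ± 0.24, SE, adjusted p = 0.047, lost in 13 of 16 other settings) with 4.7 to 5.2 in tunica and 5.0 to 6.4 in stroma close to follicles, and GLI1 was at 4.00 in both.

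Transcription factors of gonadal stroma included 4 of 28 that were lower (1.95% over all clusters) and none that was higher (median -0.03). OSR2, an odd-skipped related zinc finger factor, had 3.8, 5.1, 4.0 and 5.0 in tunica and 7.4, 6.8, 6.7 and 6.2 in stroma close to follicles (-2.30 ± 0.41, SE, adjusted p = 0.0029). LHX9, a LIM homeobox factor required for gonad formation in mice, had 4.0, 3.5, 3.2 and 3.9 in tunica and 5.4, 4.9, 6.0 and 5.2 in stroma close to follicles (-1.73 ± 0.34, SE, adjusted p = 0.0075). OSR2 was below the array median of 4.1 in some tunica arrays and LHX9 in all 4, so the LHX9 difference can be a lower limit. Both were clearly above 4.1 in every array of stroma close to follicles. SOX4 (-1.05 ± 0.23, SE, adjusted p = 0.016) and MEIS1 (-0.85 ± 0.23, SE, adjusted p = 0.043) followed. MEIS1 lost its call in 11 of 16 other settings and SOX4 in 2. WT1 and GATA4 were nearly level. WT1 averaged 6.25 ± 0.19 in tunica and 6.40 ± 0.16 in stroma close to follicles (SD, n = 4 each). GATA4 averaged 5.88 ± 0.25 in tunica and 5.90 ± 0.29 in stroma close to follicles (SD, n = 4 each). An unadjusted limma p below 0.05 was reached by 11 of the 28 factors and by 4184 of all 26773 clusters.

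Among 21 steroid and nuclear hormone receptors, NR2F1 (-1.12 ± 0.18, SE, adjusted p = 0.0015) and the mineralocorticoid receptor NR3C2 (-0.97 ± 0.24, SE, adjusted p = 0.029) were lower and none was higher. The share of lower clusters over the whole array was 1.95%. NR3C2 lost its call in 6 of 16 other settings. NR2F1, an orphan receptor also called COUP-TFI, had 6.9, 6.9, 7.0 and 7.3 in tunica and 8.5, 7.6, 8.3 and 8.2 in stroma close to follicles. The oestrogen receptor gene ESR2 did not overlap between groups, at 6.8 to 7.2 in tunica and 6.0 to 6.5 in stroma close to follicles, yet missed the threshold (0.80 ± 0.28, SE, adjusted p = 0.15), and ESR1, PGR and NR3C1 did not pass. Steroid synthesis genes were largely dim: 14 of 22 had means below 4.1 in both compartments, including CYP11A1, HSD3B1, CYP17A1 and CYP19A1. The mitochondrial translocator TSPO passed in that list (1.10 ± 0.22, SE, adjusted p = 0.0079), with 6.10 ± 0.28 in tunica and 5.00 ± 0.41 in stroma close to follicles (SD, n = 4 each).

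Neuropeptide and transmitter receptor genes had 2 of 37 higher, PENK and HTR1D, and 2 lower. For this and the next lists, the shares over all clusters were 1.85% higher and 1.95% lower. TAC3, the neurokinin B precursor, had 3.0, 4.0, 3.1 and 3.1 in tunica and 5.6, 5.4, 4.8 and 4.7 in stroma close to follicles (-1.82 ± 0.34, SE, adjusted p = 0.0048). NPY differed by -1.20 ± 0.26 (SE, adjusted p = 0.012) at signals near background, and PDYN, POMC, TAC1 and VIP did not pass. Of 26 detoxification enzymes, EPHX1 was higher, and GSTA1 and GSTM3 (-1.45 ± 0.27, SE, adjusted p = 0.0041) were lower. Immediate early and stress genes had 1 of 29 lower, IER3 (-0.70 ± 0.17, SE, adjusted p = 0.031), which lost its call in 6 of 16 other settings. FOS spread from 6.2 to 8.2 in tunica and from 5.3 to 7.3 in stroma close to follicles. None of 26 cytosolic ribosomal protein genes (median 0.06) and none of 38 respiratory chain and ATP synthase genes (median -0.13) passed in limma, with 0 and 8 at an unadjusted p below 0.05. That unadjusted level was reached by 4184 of all 26773 clusters.

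**Figure D4:**
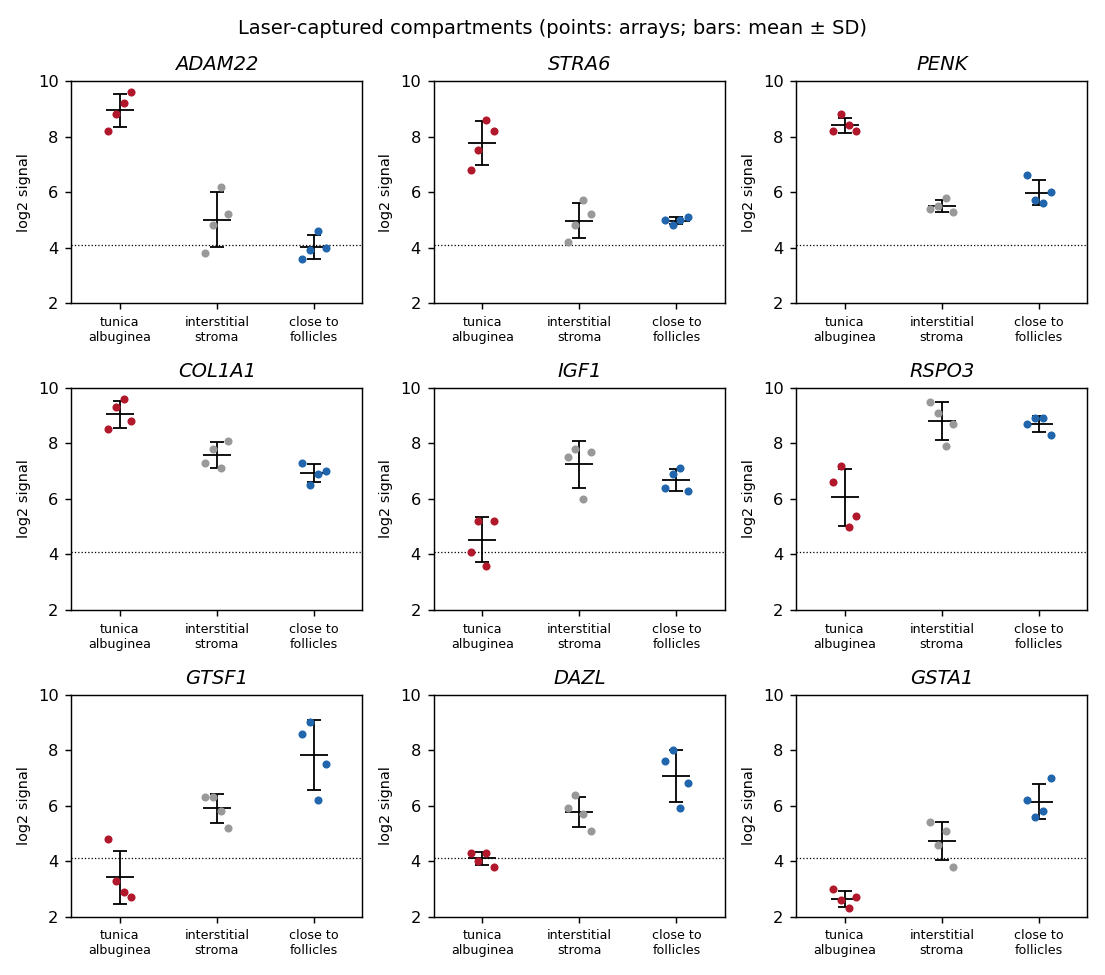
Log2 signal (y axis) of 9 genes in tunica albuginea, stroma between follicles (interstitial) and stroma close to follicles, with 1 point for each of the 4 arrays, black bars for mean ± SD and a dotted line at the array median of 4.1. ADAM22, STRA6, PENK and COL1A1 are highest in tunica, and IGF1 and RSPO3 are lower in tunica than in both stromas. GTSF1, DAZL and GSTA1 increase from tunica through interstitial stroma to stroma close to follicles.

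The label of the tissue close to follicles names stroma, yet its arrays held germ cell transcripts. Of 21 measured oocyte markers, 15 were lower in tunica and none higher, with a median of -1.38, where 1.95% of all clusters were lower. The list was chosen with earlier results of these data known, so this count is a description. GTSF1, a protein of the piRNA pathway that silences transposons in germ cells, had 4.8, 3.3, 2.9 and 2.7 in tunica and 8.6, 9.0, 6.2 and 7.5 in stroma close to follicles (-4.40 ± 0.50, SE, adjusted p = 5.6e-05). DAZL, an RNA-binding protein that marks germ cells, had 4.3, 4.0, 4.3 and 3.8 in tunica and 7.6, 8.0, 5.9 and 6.8 in stroma close to follicles (-2.98 ± 0.35, SE, adjusted p = 7.9e-05). ZP3, a protein of the zona pellucida around the oocyte, had 4.1, 3.5, 3.4 and 3.0 in tunica and 6.5, 7.4, 4.7 and 5.8 in stroma close to follicles (-2.60 ± 0.39, SE, adjusted p = 0.00061). In all 3 genes the first and second arrays of stroma close to follicles were the highest and the third the lowest. MAEL (-2.17 ± 0.28), a further piRNA pathway gene, SOHLH2 (-2.08 ± 0.21), a germ cell transcription factor, and the importin KPNA7 (-1.82 ± 0.28), which is known from bovine oocytes and early embryos, also passed, with adjusted p from 3e-05 to 0.00093. NPM2, the oocyte nucleoplasmin, was a leading gene outside the list, with 4.3, 4.3, 4.2 and 3.9 in tunica and 7.6, 8.1, 5.9 and 6.4 in stroma close to follicles (-2.83 ± 0.33, SE, adjusted p = 6.6e-05). With the 8 arrays alone in the fit 7 oocyte genes were called as lower, and without the first or the second array of stroma close to follicles 12 were. NOBOX (-0.88 ± 0.26, adjusted p = 0.067) and SOHLH1 (-0.28) did not pass. KIT, which stromal and other cells also express, was the bright member outside the pattern, at 7.08 ± 0.63 in tunica and 6.30 ± 0.41 in stroma close to follicles (SD, n = 4 each; adjusted p = 0.27).

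Averaged over the oocyte list, log2 signal was 3.70, 3.55, 3.50 and 3.34 in tunica and 5.21, 5.45, 4.25 and 4.49 in stroma close to follicles. In tunica 18 of the 21 members had a mean below 4.1, and in stroma close to follicles 6 did. The summed signal of the list ranged from 321.3 to 436.4 in tunica and from 509.3 to 1672 in stroma close to follicles. Interstitial stroma lay between them, at list means of 3.90 to 4.39. Granulosa cells enclose the oocyte in the follicle. FSHR, AMH and CYP19A1 were below 4.1 on average in both compartments, and the granulosa list had means of 4.45 to 4.63 in tunica and 4.44 to 4.66 in stroma close to follicles. Of its 18 members 2 were higher in tunica, INHBA and the gap junction gene GJA1 (0.60 ± 0.16, SE, adjusted p = 0.042), and 1 was lower, INHA. The shares over all clusters were 1.85% higher and 1.95% lower. GJA1 lost its call in 12 of 16 other settings.

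Cell cycle genes were lower in tunica for 6 of 30 members (1.95% over all clusters) and higher for none (median -0.56). PTTG1, the securin that guards chromosome separation, had 6.1, 4.7, 4.5 and 4.8 in tunica and 8.7, 8.9, 8.1 and 7.9 in stroma close to follicles (-3.38 ± 0.43, SE, adjusted p = 0.00017). AURKA, a mitotic and meiotic kinase, had 6.0, 5.4, 5.0 and 4.6 in tunica and 9.0, 9.4, 7.8 and 8.3 in stroma close to follicles (-3.38 ± 0.40, SE, adjusted p = 8e-05). BUB1B (-1.70), TPX2 (-1.55), the cyclin CCNB1 (-1.52 ± 0.34, SE, adjusted p = 0.015) and the thymidylate synthase TYMS (-0.85) also passed. TYMS lost its call in 9 of 16 other settings, TPX2 in 8, BUB1B in 5 and CCNB1 in 1. MKI67, a general marker of proliferating cells, was below 4.1 in all 8 arrays, at 3.1 to 3.2 in tunica and 2.7 to 3.0 in stroma close to follicles, and CDK1 did not differ beyond its SE (0.05 ± 0.43). The list mean was 4.14 to 4.23 in tunica, and 5.14, 5.17, 4.57 and 4.84 in stroma close to follicles. The first and second arrays of stroma close to follicles, which had the highest oocyte list means, also had the highest cell cycle means, and the part of oocyte transcripts in the cell cycle result was not tested. Without the second array of stroma close to follicles, 2 cell cycle genes were called, without tunica arrays 2, 3 or 4 or the first of stroma close to follicles 3 were, and over all clusters 289 were lower in tunica in place of 523. Without the first array 311 were lower.

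Markers of other cells that the captured tissue could hold were set beside the 3.8% called over all clusters. Of 26 endothelial markers, 2 were lower in tunica and 1 higher (median -0.18). An unadjusted limma p below 0.05 was reached by 12 of them and by 4184 of all 26773 clusters. KDR, the main VEGF receptor of vessels, had 3.7, 4.8, 4.9 and 5.7 in tunica and 6.0, 6.1, 6.6 and 5.8 in stroma close to follicles (-1.35 ± 0.30, SE, adjusted p = 0.017), and TEK differed by -0.88 ± 0.24 (SE, adjusted p = 0.046, lost in 11 of 16 other settings). PECAM1 averaged 3.40 ± 0.28 in tunica and 4.40 ± 0.44 in stroma close to follicles (SD, n = 4 each) and did not pass (adjusted p = 0.088). ENG, endoglin, which fibroblasts also express, was higher instead, with 9.1, 9.0, 9.3 and 9.2 in tunica and 8.1, 8.0, 8.1 and 7.9 in stroma close to follicles (1.12 ± 0.13, SE, adjusted p = 5.8e-05). Among smooth muscle and pericyte markers 1 of 18 was lower, the pericyte gene ABCC9 (-1.10 ± 0.26, SE, adjusted p = 0.024), and MYH11, CNN1 and TAGLN did not pass at signals of 6.0 to 9.7. ABCC9 lost its call in 7 of the other settings and KDR in 3.

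Leukocyte markers had 1 of 28 higher, PTPRC, the common leukocyte antigen CD45, with 5.2, 4.5, 4.9 and 5.2 in tunica and 2.9, 3.5, 4.3 and 3.1 in stroma close to follicles (1.5 ± 0.33, SE, adjusted p = 0.016). PTPRC lost its call in 4 of the other settings. The median of the list was 0.38 and 25 of the 28 differences were positive, and its array means were 4.12 to 4.57 in tunica and 3.77 to 4.25 in stroma close to follicles, which overlap. Surface epithelium is the layer directly above the tunica. KRT7, KRT8, KRT18 and KRT19 all had means below 4.1 in both compartments, and the list means were 3.97 to 4.13 in tunica and 4.17 to 4.29 in stroma close to follicles. Of its 23 members, the calcium-binding CALB2 was higher (1.48 ± 0.36, SE, adjusted p = 0.028), and EPCAM, DSP and LHX9 were lower. CALB2 lost its call in 8 of the other settings and DSP in 5, while EPCAM and LHX9 kept theirs. EPCAM, an adhesion protein of epithelia, had 3.5, 3.6, 2.9 and 3.2 in tunica and 6.2, 6.3, 5.4 and 5.6 in stroma close to follicles (-2.58 ± 0.22, SE, adjusted p = 6e-06), without the keratins. Among 13 nerve and Schwann cell markers the neural adhesion gene NCAM1 was higher (1.98 ± 0.30, SE, adjusted p = 0.00085), while SOX10, MBP and CDH19 were below 4.1 in both compartments. Of 11 red blood cell markers none passed in limma, with 1 at an unadjusted p below 0.05, beside 4184 of all 26773 clusters.

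**Figure D5:**
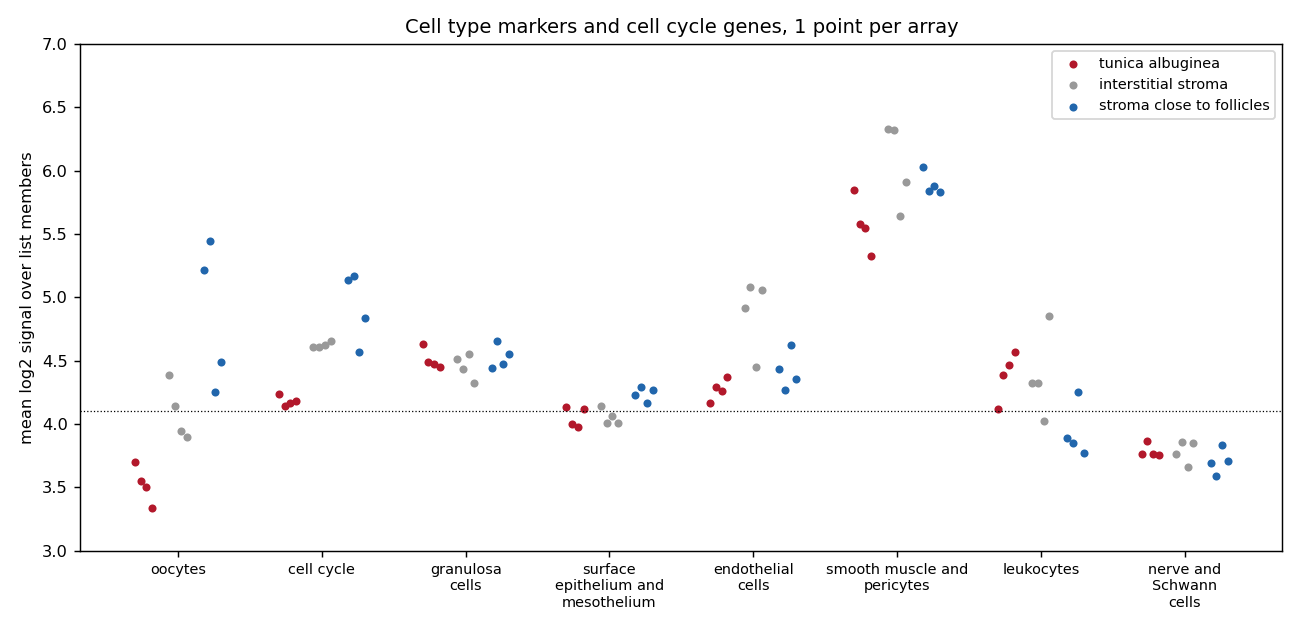
Mean log2 signal (y axis) over the members of 8 gene lists, with 1 point for each array of tunica albuginea (red), interstitial stroma (grey) and stroma close to follicles (blue), and a dotted line at the array median of 4.1. Oocyte means range from 3.34 to 3.70 in tunica and from 4.25 to 5.45 in stroma close to follicles, while the granulosa lists overlap.

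Interstitial stroma, captured in the same way, shows where along this difference the third compartment lies. It was compared with tunica (407 clusters called, 1.52%, with 253 higher and 154 lower in tunica) and with stroma close to follicles (9 called, 0.0336%, all lower in interstitial stroma). These comparisons share arrays with the main one, and the clusters below were chosen by it, so their places are a description. Of the 494 clusters higher in tunica, 391 had an interstitial mean between the other means, and 393 (79.6%) lay nearer to stroma close to follicles. On the median, interstitial stroma stood at 0.23 of the way from stroma close to follicles to tunica. Of the 523 clusters lower in tunica, 265 (50.7%) lay nearer to stroma close to follicles, with a median of 0.49 of the way. Of the 38 matrix genes higher in tunica, 32 (84.2%) had interstitial levels nearer to stroma close to follicles, and 21 of them also passed between tunica and interstitial stroma. The exceptions included OGN, at 6.68 in tunica, 6.28 in interstitial stroma and 4.90 in stroma close to follicles. Another was FBN1, at 6.80 in tunica, 6.58 in interstitial stroma and 6.0 in stroma close to follicles.

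All 15 oocyte genes had interstitial means between those of tunica and stroma close to follicles, with a median of 0.58 of the way to tunica. Between the stromas, 9 genes differed, namely EPCAM, SOHLH2, LOC505033, RBM46, TNNI3, ALOX15B, CDH7, MAEL and SAXO1. That count was 152 without the third array of stroma close to follicles and 0 without the second. MAEL averaged 3.93 ± 0.32 in interstitial stroma and 5.60 ± 0.67 in stroma close to follicles (SD, n = 4 each). The signalling genes IGF1 and RSPO3 and the transcription factor OSR2 were lower in tunica and did not pass between the stromas. IGF1 averaged 4.53 in tunica, 7.25 in interstitial stroma and 6.68 in stroma close to follicles, RSPO3 6.05 in tunica, 8.80 in interstitial stroma and 8.70 in stroma close to follicles, and OSR2 4.48 in tunica, 6.80 in interstitial stroma and 6.78 in stroma close to follicles. PTGES was lowest in interstitial stroma, at 8.20 in tunica, 5.73 in interstitial stroma and 6.85 in stroma close to follicles.

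A principal component analysis of the 12 laser-captured arrays put 21.1% of the variance on its first axis. Scores on it were 30.8 to 41.7 for tunica, -18 to 0.3 for interstitial stroma and -39.6 to -15.9 for stroma close to follicles. The second component held 13% and was led by the first tunica array (39.5), which also had the lowest array weight (0.63). An array correlated with the others of its compartment at 0.956 to 0.969. The number of arrays limits the precision.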

How the data were processed

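Total RNA was amplified from picogram amounts and hybridised to single-colour arrays. Per the submitters' processing notes, the authors used RMA (background correction, quantile normalization, probe summary) and Partek 6.5. The deposited values are log2 signals rounded to 0.1, without detection calls. Differences in total signal between arrays are removed by quantile normalization. Groups came from sample titles, since a source label that calls every sample thecal tissue was not used.

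The array's annotation named 18457 of 26773 clusters by 1 symbol, while 688 had several symbols and 7628 no entry. Control clusters are not marked, so all were tested. A gene with several clusters was represented by the one with the highest mean over all 18 arrays. limma 3.58.1 in R 4.3.3 fitted 1 mean per compartment over all 18 arrays, with two-sided moderated tests and Benjamini-Hochberg adjustment, and was checked on simulated data. SD is the spread of arrays and SE the moderated error.

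Leading genes were the 15 largest differences each way among those with an adjusted p below 0.05, no overlap of arrays and a mean of at least 6 in the higher compartment. Of 30 lists (759 members, 692 measured, 5 through a synonym), up to 6 passing members by size and up to 4 others in list order were named, with up to 6 microRNA genes. Of the synonyms, RPL36 (listed as RPL35), OOSP2 (as OOSP1) and LOC783879 (as GSTM4) may be other genes, and none of these passed. The members and lists were chosen with earlier results of these data known. Same-numbered tunica and close-stroma arrays did not deviate together (r from -0.029 to 0.008), so numbers were not treated as pairs. Alternatives changed the arrays in the fit, array weights, variance trend, filter, normalization and threshold. No genome or sequence tables were used.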

Additional observations from a re-analysis of the deposited data

Results flagged for a closer look

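In 538 groups of 4 array values, the highest or lowest array stood apart from the others by Dixon's criterion in 36 (6.69%), where the rate of about 1 in 20 that chance gives is for unrounded values. These values are rounded to 0.1, and in 7 of the 36 the gap was a single step of 0.1.

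The first tunica array was the high one for PHYHIPL (3.7, others 2.9 to 3.0), SPARCL1 (10.4), FGF1 (6.8, others 5.5 to 5.7), FGF7 (2.6), NPY (3.4) and CCNB1 (4.2), and the low one for PTGER2 (4.8, others 5.9 to 6.0), IGFBP6 (7.8), C1QA (3.4) and HBG (3.4). The second was high for THBS4 (4.4), TAC3 (4.0) and the mean of the nerve list (3.87). The third was high for CCN2 (8.3, others 7.1 to 7.2), COL6A1 (8.9), FBN2 (6.0, others at 5.3) and DHRS9 (3.1). The fourth was high for GJA1 (10.6) and low for PCOLCE (6.2) and GLI2 (5.5).

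In stroma close to follicles, the first array was high for KERA (3.0), FOXL2 (4.0), TAC1 (3.8) and S100B (5.1) and low for FBLN1 (9.4) and SPARCL1 (10.5). The second was high for PLOD1 (6.3) and low for LAMB1 (7.9), MEIS1 (6.9), MYH11 (9.6) and the mean of the prostaglandin list (4.34). The third was low for DCN (11.1), INSR (7.8) and SOX10 (3.1). The fourth was high for KRT18 (4.2) and low for the mean of the ribosomal list (10.29).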

How the results depend on the processing

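Between tunica and stroma close to follicles, the count of 1017 was 434 (223 higher, 211 lower) with the 8 arrays alone, 503 (235 and 268) at 2-fold and 388 (201 and 187) at an adjusted p below 0.01; other settings stayed within 1.5 times. Leaving out 1 array gave 627 to 1022 clusters (310 to 473 higher, 289 to 587 lower), with 652 without the first and 645 without the second array of stroma close to follicles, and 627 without the third tunica array. Between tunica and interstitial stroma, leaving out 1 array gave 219 to 477 (148 to 264 higher, 71 to 213 lower), and 97 were lower with the 12 laser-captured arrays. Between the stromas, leaving out 1 array gave 0 to 152 (0 to 30 higher, 0 to 122 lower). There the 9 became 0 with the 12 arrays in limma (2069 at an unadjusted p below 0.05) and 3 (3 lower) without the 40% dimmest clusters, and a variance trend called 1 as higher. The cause of the changes was not tested.

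With the replicate number as a block, 868 clusters were called between tunica and stroma close to follicles (419 higher, 449 lower) and 5 (5 lower) between the stromas. After compartment means were subtracted, same-numbered tunica and interstitial arrays correlated at 0.095 to 0.145. Each tunica array correlated best with its own number, a hint from the data and not the design.

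No named gene reversed its direction, and of 120 named genes that passed, 77 did so in every setting that tested them. Without the dimmest clusters 8 of the 120 were not tested, and 74 of the 77 were tested in every setting. Of the 30 leading genes 29 passed in every setting, MT2A being the exception (highest adjusted p = 0.06). PTGS1, PTCH1, IGFBP4, COL6A1, NID2, GJA1, PTGES, STC1, TEK, MEIS1, MIR2348 and INHBA were lost in 10 to 14 settings. Oocyte genes lower in tunica numbered 7 with the 8 arrays and 8 without the dimmest clusters, where fewer were tested, and 12 to 16 when 1 array was left out.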

Other observations

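Gene families outside the lists above were read from the symbols after the values had been seen, so their counts are descriptions. Over all clusters, 1.85% were higher and 1.95% lower. Semaphorins, guidance proteins for axons and vessels, had 5 of 19 members higher in tunica and none lower: SEMA5A was at 6.25 ± 0.47 in tunica and 5.45 ± 0.10 in stroma close to follicles, and SEMA6D at 5.78 ± 0.25 in tunica and 4.93 ± 0.15 in stroma close to follicles (SD, n = 4 each), while SEMA3B, SEMA3C and SEMA3E were dimmer. Of 86 genes with potassium channel symbols, which include channel regulators, 7 were higher and 3 lower, with a median difference of 0. The higher ones included the regulator KCNRG (1.98 ± 0.30, SE, limma adjusted p = 0.00081) and the channel subunit KCNS3 (1.60 ± 0.26, SE, limma adjusted p = 0.0017). Chemokines had 3 of 32 higher, CXCL16 (1.43), CCL5 (1.33) and CX3CL1 (1.15), and none lower.

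Of 29 integrin genes 2 were higher and 1 lower. The collagen-binding integrin ITGA1 averaged 8.35 ± 0.41 in tunica and 7.10 ± 0.14 in stroma close to follicles and ITGB3 6.40 ± 0.37 in tunica and 5.35 ± 0.44 in stroma close to follicles, whereas the laminin-binding ITGA6 averaged 6.90 ± 0.66 in tunica and 8.10 ± 0.51 in stroma close to follicles (SD, n = 4 each). Of 42 cadherins, CDH11, known from mesenchymal cells (0.60 ± 0.16, SE, limma adjusted p = 0.039), and the dim CDH17 (0.68) were higher and CDH7 (-2.23) was lower. Of 21 claudins, CLDN10 (-1.88) was lower. ADAMTSL4, which binds fibrillin microfibrils, was higher by 1.98 ± 0.23 (SE, limma adjusted p = 6.4e-05). Of 315 solute carriers 11 were higher and 5 lower, beside 3.8% called over all clusters, with the sulphate transporter SLC26A2 at 1.38 ± 0.22 and the nucleoside transporter SLC29A1 at 1.0 ± 0.16. Of 528 microRNA genes on the array, MIR29C (1.65 ± 0.42, SE, limma adjusted p = 0.036) and MIR2348 (0.70) were higher and MIR28 (-1.28) and MIR2353 (-0.55) lower, beside the same 3.8%. They lost their calls in 8 to 10 of the other settings, and the arrays overlapped for MIR29C, MIR28 and MIR2348. The probes of a microRNA gene do not separate its precursor from the mature form.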
